A study of Mus musculus with 2 samples.

Results

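The KLF, SP and EGR genes encode transcription factors that bind GC-rich DNA through C2H2 zinc fingers at or near the end of the protein. They were taken by symbol (Klf, Sp or Egr followed by a number) from the protein-coding genes of a RefSeq table of the GRCm38.p6 assembly. The choice of these genes was made with earlier results of these data known. The symbols gave 30 of 21523 genes, namely 17 KLF, 9 SP and 4 EGR genes. Of these, 8 lay near a binding site of the transcription factor HLF, meaning that a peak centre fell in the gene body or within 20 kb of it: Klf3, Klf7, Klf9, Klf10, Klf13, Klf16, Sp3 and Egr1.

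The binding sites came from chromatin immunoprecipitation sequencing with an anti-FLAG antibody in cells of C57BL/6 mice with the surface phenotype Lin-Sca-1+c-Kit+, which is enriched for haematopoietic stem and progenitor cells. Both libraries of the series came from animals aged 8 to 10 weeks, with the tissue labelled as blood, and the cells were held in culture for 5 days. The medium contained 4 cytokines, with IL-3 at 5 ng/ml, both IL-7 and Flt3L at 10 ng/ml and SCF at 50 ng/ml. One library came from cells infected with a MigR1 retrovirus carrying tagged HLF (transgene labelled MigR1 3xFLAG-HLF/HLF), and the second was made with the empty MigR1 vector. The first was described by a list of 3153 peaks (n = 1 library), and the empty-vector library was not analysed here. The tagged protein was expressed from a virus, and sites of the cells' own HLF were not measured. The peak list holds no transcript levels, so neither the cell type nor the expression of any gene named below could be checked. It also holds no peak height or read count, so the depth is unknown, and with 1 library there is no spread between cultures and no test between conditions.

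HLF (hepatic leukemia factor) belongs to the PAR bZIP family, which binds palindromic AT-rich sites, and it is expressed in haematopoietic stem cells. KLF proteins bind CACCC and GC boxes and differ in the cofactors they recruit. In blood, KLF1 drives red cell genes, KLF2 keeps lymphocytes quiescent and guides their traffic, and KLF4 supports monocyte differentiation. SP1 to SP4 are broadly expressed activators or repressors of GC-box promoters, while SP5 to SP9 act mainly in the embryo, limb, brain, teeth and bone. EGR1 to EGR4 are induced within minutes of growth factor or antigen receptor signals, and EGR1 restrains the division and mobilisation of stem cells.

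Promoter sequence from RefSeq (GRCm38.p6) was listed for 22 of the 30 genes. Shown here are the 250 bases upstream of the outermost listed start, 5′ to 3′ on the gene's strand. They are given for the 3 members with a peak within 5 kb of a listed start (Klf3, Klf7 and Sp3) and for Klf9, whose peak lay upstream. For Klf7 that start, at 64121389, lies inside the gene body, and so does its window. The windows show the sequence setting of the outermost listed starts. The Sp3 peak inside the gene lay nearer to a second listed start, whose window is not printed. Capitals mark GC boxes, which are GGGCGG on either strand. In order, the windows are chr5:64803271-64803520 on the plus strand, chr1:64121390-64121639 on the minus strand, chr2:72980447-72980696 on the minus strand and chr19:23140976-23141225 on the plus strand.
Klf3: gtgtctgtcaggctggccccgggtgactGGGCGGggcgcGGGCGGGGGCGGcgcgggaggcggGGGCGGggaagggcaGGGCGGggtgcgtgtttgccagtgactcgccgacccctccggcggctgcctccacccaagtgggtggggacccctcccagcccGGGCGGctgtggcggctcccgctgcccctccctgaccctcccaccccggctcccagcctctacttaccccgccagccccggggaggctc
Klf7: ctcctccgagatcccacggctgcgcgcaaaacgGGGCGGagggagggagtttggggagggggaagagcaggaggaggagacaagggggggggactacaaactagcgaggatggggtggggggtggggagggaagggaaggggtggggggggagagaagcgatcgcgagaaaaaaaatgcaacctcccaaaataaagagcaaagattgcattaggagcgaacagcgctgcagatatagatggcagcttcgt
Sp3: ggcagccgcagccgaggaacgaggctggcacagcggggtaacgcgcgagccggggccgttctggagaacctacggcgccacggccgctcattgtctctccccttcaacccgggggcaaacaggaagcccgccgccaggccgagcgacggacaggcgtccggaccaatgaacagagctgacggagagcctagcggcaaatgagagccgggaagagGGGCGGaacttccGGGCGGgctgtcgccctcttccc
Klf9: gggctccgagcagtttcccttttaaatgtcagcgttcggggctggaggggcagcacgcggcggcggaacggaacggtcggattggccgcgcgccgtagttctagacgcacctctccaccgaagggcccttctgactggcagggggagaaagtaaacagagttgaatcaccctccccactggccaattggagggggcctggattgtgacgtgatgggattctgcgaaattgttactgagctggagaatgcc

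The 8 genes near a peak made up 26.7% of the 30 members (exact Clopper-Pearson 95% interval 12.3 to 45.9%, covering counting error over genes only). Among all 21523 protein-coding genes, 3294 lay near a peak, or 15.3%. Other protein-coding genes in the same classes of length gave 4.5 of 30 as the expected number, or 15.0%, which lies inside the interval of the members' share. At 20 kb the difference from genes of like length was therefore within counting error. The members near a peak were longer than the others, with a median length of 28.1 kb against 8.96 kb for the 22 members with no peak in that range. Among other protein-coding genes the share near a peak also differed with length. It was 11.2% in the length class of Egr4, the shortest member, and 30.7% in that of Klf12, the longest.

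**Figure D1:**
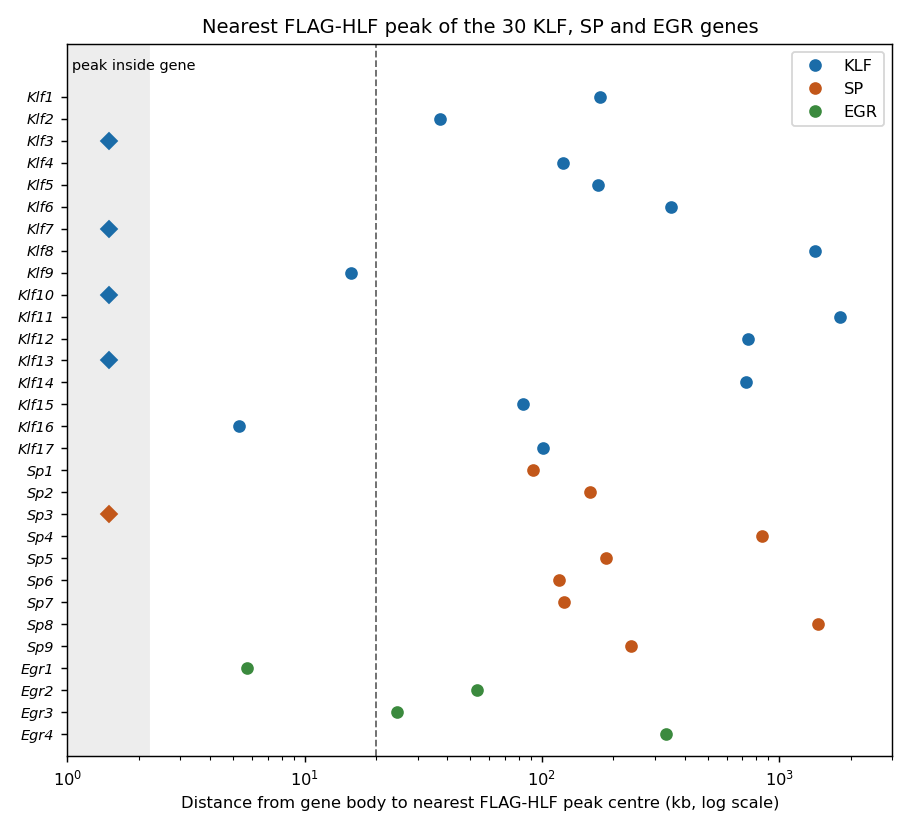
Distance in kb (log axis) from the body of each of the 30 genes to its nearest FLAG-HLF peak centre, with diamonds in the grey band for a peak inside the gene and the dashed line at 20 kb. Klf3, Klf7, Klf10, Klf13 and Sp3 held a peak, Klf16, Egr1 and Klf9 had one at 5.29, 5.75 and 15.8 kb, and the other 22 lay right of the line.

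A peak inside the gene was found at 5 members, Klf3, Klf7, Klf10, Klf13 and Sp3. That is 16.7% of the 30 (exact 95% interval 5.64 to 34.7%), where 6.94% of all protein-coding genes held a peak. Genes of like length gave 1.58 of 30, or 5.27%, just below that interval, which does not cover the choice among distances. The 6.94% of all protein-coding genes lay inside the interval. With 1 kb allowed beyond the body the members' count was again 5, and genes of like length gave 6.23%, also inside it. The distance to the nearest peak had a median of 120 kb over the members and 179 kb over the other protein-coding genes, and the median over members of the typical distance in their length class was 149 kb. Of the 30 members, 18 were nearer to a peak than the median gene of their length class and 12 were farther. No member had a peak within 1 kb of either gene end, a position found at 1.76% of all protein-coding genes.

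Among KLF genes, 6 of 17 lay near a peak, where genes of like length gave 2.63. Each of the 6 had 1 peak. Klf3 (gene ID 16599; chromosome 5, 64803521 to 64832901) encodes a repressor that recruits CtBP and acts in B cells and red cells. Its peak at chromosome 5, 64806303 to 64806702, was centred 2.98 kb downstream of the gene start, inside the gene. The peak also lay inside Gm38457, a predicted protein-coding gene that overlaps Klf3 and whose boundary was closer, at 2.68 kb, so it cannot be given to Klf3 alone.

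Klf7 (gene ID 93691; chromosome 1, 64029448 to 64122345) encodes a broadly expressed factor known for its part in neuron development. Its peak at chromosome 1, 64118196 to 64118595, was centred 2.99 kb downstream of its listed start and 3.95 kb inside the gene end. That listed start lies inside the gene, so the 2.99 kb is not measured from the gene end as in Klf3. No other protein-coding gene lay within 20 kb of the Klf7 peak. The gene spans 92.9 kb, and this peak sat in the part next to the start.

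Klf10 and Klf13 also held their peaks. Klf10 (gene ID 21847; chromosome 15, 38291464 to 38300711) is a target of TGF-beta signals and encodes a repressor of cell growth genes. Its peak at chromosome 15, 38298588 to 38298987, was centred 1.92 kb inside the gene end with the higher coordinate. It also fell in Gm35248, a noncoding gene, and in the range of no other protein-coding gene. Klf13 (gene ID 50794; chromosome 7, 63886351 to 63938915) encodes a factor that acts on the Ccl5 promoter in T cells. Its peak at chromosome 7, 63896779 to 63897178, was centred 41.9 kb downstream of the start and 10.6 kb from the far end of the gene. That peak was shared with the noncoding gene Gm27252 and lay within 20 kb of E030018B13Rik.

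The peaks of Klf9 and Klf16 lay outside the genes. Klf9 (gene ID 16601; chromosome 19, 23141226 to 23168129) is induced by thyroid hormone and glucocorticoids. Its peak at chromosome 19, 23125267 to 23125666, was centred 15.8 kb upstream of the start, in no annotated gene, and had Klf9 as its nearest protein-coding gene. Klf16 (gene ID 118445; chromosome 10, 80567121 to 80577296) encodes a repressor that binds GC-rich promoters. Its peak at chromosome 10, 80561634 to 80562033, was 5.29 kb from the gene but inside the neighbouring Rexo1, whose boundary was closer at 2.96 kb. Of the 6 KLF genes, Klf3 and Klf16 thus had a peak that lay nearer to the boundary of another protein-coding gene.

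**Figure D2:**
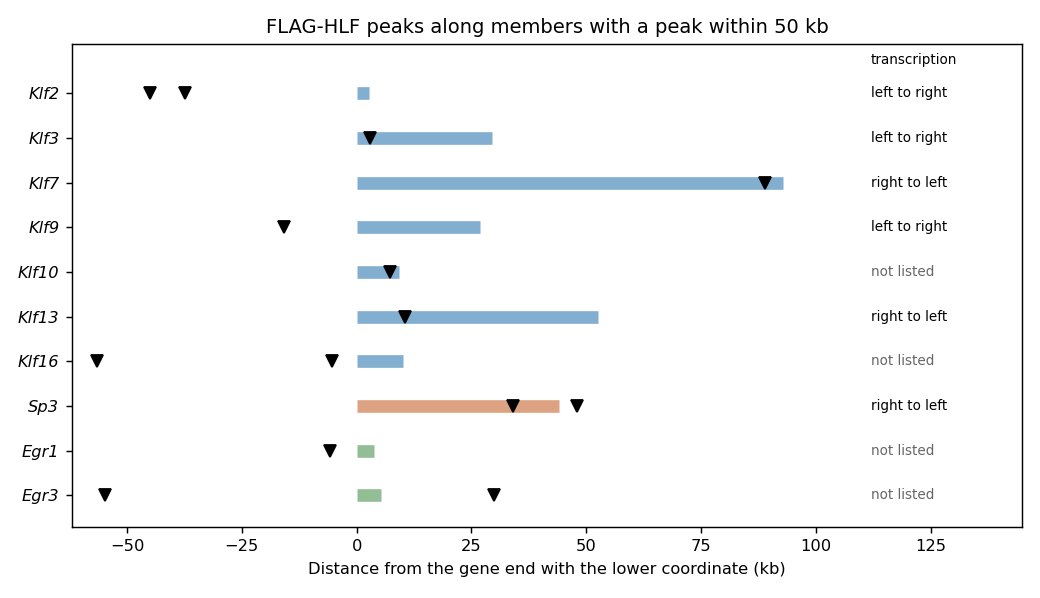
Positions of FLAG-HLF peak centres (triangles) along the 10 members with a peak within 50 kb, in kb from the gene end with the lower coordinate, with bars for the gene bodies (blue KLF, orange SP, green EGR) and the direction of transcription where a promoter was listed. The Klf3 peak sat 2.98 kb inside the gene end with the lower coordinate. The Klf7 peak sat 3.95 kb inside the end with the higher coordinate (2.99 kb from its listed start). The Klf9 and Klf2 peaks lay upstream.

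The KLF proteins can be grouped by cofactor, a grouping applied here after the peaks had been seen. KLF15 and KLF17, whose genes were not near a peak, were placed in no class. Of the 6 that bind the corepressor SIN3 (KLF9, KLF10, KLF11, KLF13, KLF14 and KLF16), 4 had their gene near a peak, where genes of like length gave 0.957. Klf11 and Klf14 were the exceptions, with their nearest peaks at 1800 and 727 kb. Of the 6 that recruit acetyltransferases (KLF1, KLF2, KLF4, KLF5, KLF6 and KLF7), 1 was near a peak, Klf7, against 0.838. Of the 3 that bind CtBP (KLF3, KLF8 and KLF12), 1 was near a peak, Klf3, against 0.536. These counts are too small to order the classes, and the difference between them was not tested.

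The other 11 KLF genes had no peak within 20 kb, as was the case for most protein-coding genes. The nearest peak of Klf1, the red cell regulator, was at 176 kb, inside Nfix. That of Klf4 was at 123 kb, in no protein-coding gene, with no other protein-coding gene lying wholly between. Klf5 and Klf6 had their nearest peaks at 172 and 349 kb. Klf2 (chromosome 8, 72319062 to 72321654) had a pair of peaks upstream of its start, at 37.3 kb (chromosome 8, 72281515 to 72281914) and 45.1 kb (chromosome 8, 72273764 to 72274163). The nearer one lay in the noncoding gene Gm51537, and both had Ap1m1 as the gene with the nearest boundary. Among the other KLF genes, Klf15 was at 83.1 kb, Klf17 at 101 kb, Klf12 at 739 kb and Klf8, on the X chromosome, at 1410 kb.

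Of the SP genes, Sp3 alone lay near a peak, 1 of 9 where genes of like length gave 1.4. Sp3 (gene ID 20687; chromosome 2, 72936430 to 72980446) encodes a ubiquitous factor that shares GC boxes with SP1 and can activate or repress. It was the one member with more than 1 peak in this range. One was centred 3.93 kb upstream of the gene start, at chromosome 2, 72984179 to 72984578, inside the noncoding gene Sp3os. The other lay in the gene at chromosome 2, 72970369 to 72970768, 9.88 kb from the gene's nearer end and 8.71 kb downstream of a second listed start. Neither peak was in the range of another protein-coding gene. Of all protein-coding genes near a peak, 82.2% had a single one.

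Sp1, the founding member, had its nearest peak at 91.7 kb, inside Atf7. Sp2 and Sp4 were at 160 and 846 kb. The developmental genes Sp5 to Sp9 had 0 of 5 members near a peak, with distances from 118 kb for Sp6 to 1460 kb for Sp8, where genes of like length gave 0.674. The nearest peak of Sp7, which encodes the bone regulator osterix, was at 124 kb and lay inside Itgb7. Several SP and KLF genes are chromosomal neighbours and do not give separate distances. Sp2 and Sp6 lie 30.6 kb apart and shared a nearest peak in Tbkbp1. Sp4 and Sp8, 545 kb apart, shared one whose nearest gene was Ptprn2, and Klf5 and Klf12, 553 kb apart, shared one in Pibf1. Sp7 and Sp1 lie 39.3 kb apart and Sp3 and Sp9 291 kb apart, with different nearest peaks.

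Of the 4 EGR genes, 1 lay near a peak, where genes of like length gave 0.469. Egr1 (gene ID 13653; chromosome 18, 34861207 to 34864956) had a single peak 5.75 kb outside the gene end with the lower coordinate, at chromosome 18, 34855261 to 34855660. That peak lay in no annotated gene, and Egr1 was its nearest protein-coding gene, although Kdm3b and Reep2 also lay within 20 kb. Egr3, which acts with Egr2 in lymphocyte tolerance, missed the 20 kb limit with a peak at 24.6 kb (chromosome 14, 70107049 to 70107448) that fell inside Bin3. A second one lay on the other side at 54.9 kb, in Pebp4. Egr2 had its nearest peak at 53.2 kb, in the noncoding gene Gm32364, and Egr4 at 332 kb. At the 20 kb limit itself, Klf9 at 15.8 kb was the member just inside and Egr3 at 24.6 kb the one just outside.

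The share of members with a peak was set beside that of other genes as the allowed distance grew. Within 5 kb the same 5 genes were counted as in the gene body, against 9.58% of all protein-coding genes and 2.55 expected from length. Within 10 kb there were 7 members, against 11.6% of all genes and 3.23 expected. At 50 kb Klf9, Klf2 and Egr3 joined to make 10 members, against 24.6% and 7.61. At 100 kb Klf15, Sp1 and Egr2 made 13 members, or 43.3%, against 36.9% and 11.8. The members' counts were above the number expected from length at each distance, and proportionally closest to it at 100 kb. Each range includes the narrower ones, so the 5 genes with a peak in the body count again throughout. The distances are therefore not separate results. From the body to 100 kb, the members went from 5 to 13 and the expected number from 1.58 to 11.8. Of the other 17 members, the nearest peak lay between 101 and 1800 kb away. The nearest peak was over 500 kb away for 6 of the 30 members and for 26.9% of all protein-coding genes.

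**Figure D3:**
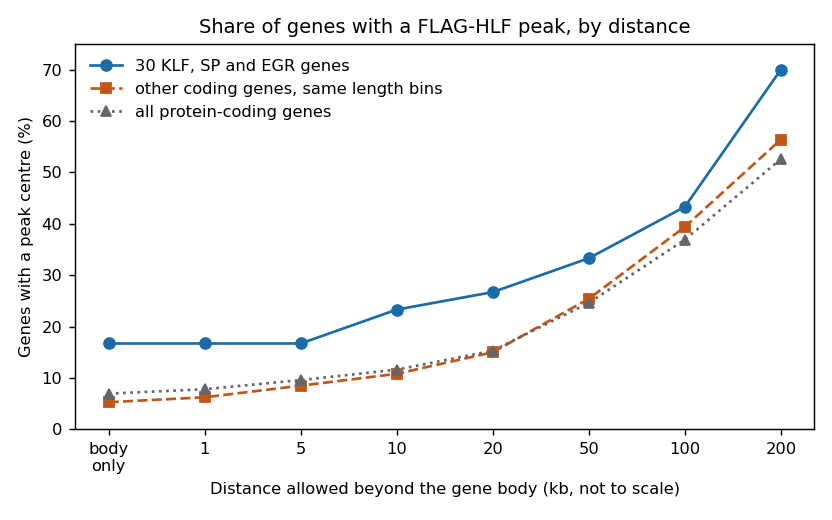
Percentage of genes with a FLAG-HLF peak centre in the body or within the distance on the x axis (kb, evenly spaced labels), for the 30 KLF, SP and EGR genes, other protein-coding genes in the same length classes, and all protein-coding genes. The members ran from 16.7% in the body to 43.3% at 100 kb and 70.0% at 200 kb, against 6.94, 36.9 and 52.6% of all protein-coding genes.

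The 8 members were counted through 9 distinct peaks, 5 inside a member and 4 outside. The member was the protein-coding gene with the nearest boundary for 7 of the 9, the exceptions being the Klf3 and Klf16 peaks. In 5 of the 9, no other protein-coding gene lay within 20 kb: the peaks of Klf7, Klf9 and Klf10 and both of Sp3. When a peak counted solely for its closest gene end, up to 100 kb away, Klf7, Klf9, Klf10, Klf13, Sp3 and Egr1 were counted, 6 of 30 against 11.0% of all genes.

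A peak at a listed promoter was rare over all genes, so finding none in a group this small tells little about the members. Of the 22 members with a listed promoter (250 bases before to 50 after the start), 0 had one that overlapped a peak, where 0.961% of 17274 protein-coding genes did. A peak within 5 kb of a listed start was found at Klf3, Klf7 and Sp3, 3 of 22 against 4.10%. Klf5, Klf10, Klf14, Klf16, Sp6, Sp7, Egr1 and Egr3 were not in the promoter table. Among them, Klf10, Klf16 and Egr1 lay near a peak, and their starts could not be checked.

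The upstream sequences often held the boxes that KLF and SP proteins themselves bind. Upstream here means before the outermost listed start, which lay inside the gene body for Egr2, Klf7, Klf8, Klf12, Klf15 and Sp8. The GC box GGGCGG occurred in the 250 bases upstream of 15 of 22 members (68.2%) and of 43.2% of all 17274 promoters, counting both strands. The Klf3 sequence printed above held 6, that of Sp3 held 2, that of Klf7 held 1 and that of Klf9 none. The CACCC box, searched as CCACCC on both strands, occurred in 10 of 22 (45.5%) against 29.7%, with 3 matches each in Klf3 and Klf7. CCAAT, the element bound by NF-Y, occurred in 13 of 22 (59.1%) against 36.8%, with 3 matches in Klf9. A match describes these letters only and is not a measured site. The members' upstream sequences had a median GC content of 63.6%, from 40.8% in Sp8 to 80.0% in Sp4, against 55.6% over other protein-coding genes. Base composition thus differed together with the GC and CACCC box counts. Its part in any of the motif counts was not tested.

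Sites of the PAR bZIP type were rare in these windows, in the members and over all promoters. TTACGTAA occurred in 0 of 22 and in 0.110% of all promoters. TTATGTAA, searched with its reverse complement, occurred in 1 of 22, Sp8, and in 0.857% of all. The related C/EBP-type sites TTGCGCAA and TTGCGTAA occurred in 0 of 22 each, against 0.197 and 0.185%. The EGR site GCGTGGGCG was found in 0 members and 0.729% of all promoters, and the CArG box, the element of serum response factor, in 0 and 1.41%. The ETS core CCGGAA was found in Klf8 and Sp3, 2 of 22 against 15.4%. TTACGTAA and TTGCGCAA are palindromes and were counted once, and matches to GC, CACCC and EGR motifs can overlap one another. No genome sequence was used, so the letters under the peaks themselves were not searched.

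**Figure D4:**
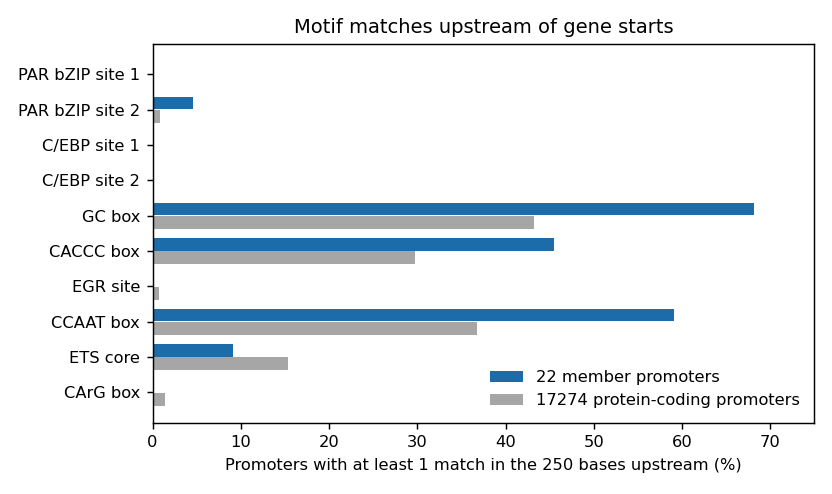
Percentage of promoters with at least 1 match in the 250 bases upstream of the start, for 22 members and for 17274 protein-coding genes. GC, CACCC and CCAAT boxes stood at 68.2, 45.5 and 59.1% of members against 43.2, 29.7 and 36.8% of all. The PAR bZIP sites TTACGTAA and TTATGTAA were at 0 and 4.55% of members (the latter Sp8 alone) against 0.11 and 0.857% of all.

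Genes that act before, with or after these factors were read from 5 lists that do not overlap. These lists, and the GLI, GLIS and ZIC genes below, were chosen with earlier results of these data known. Their counts are therefore a description and not a blind comparison. Together 10 of 47 listed genes lay near a peak (21.3%, against 15.3% of all protein-coding genes), where their lengths gave 8.19. Among 8 targets of KLF2 and KLF4 in leukocytes and endothelium, 3 were near a peak, where lengths gave 1.08. Itgb7, which encodes an integrin of gut homing, had a peak 0.447 kb inside its boundary. The other two were Thbd, which encodes thrombomodulin, at 11.1 kb and Cd14, which encodes a co-receptor for endotoxin, at 16.0 kb. The Itgb7 peak was also in the range of Rarg and Zfp740, that of Thbd in the range of Sstr4 and that of Cd14 in the range of E230025N22Rik. S1pr1, Ccr7, Nos3, Cdkn1a and Cdkn1c had no peak within 20 kb.

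Of 7 genes of the ERK5 and MEF2 route that induces Klf2 and Klf4, 3 were near a peak, where lengths gave 1.47. Mef2c, a MEF2 factor of lymphoid and myeloid progenitors, had a peak 57.6 kb inside the gene. Mef2b and the kinase gene Map3k3 had peaks 4.35 and 11.0 kb outside, in the range of 4 and 3 other protein-coding genes. Of 13 cofactors and ubiquitin ligases, 3 were near a peak, where lengths gave 2.74. Sin3a, which encodes the corepressor named above, had a peak 1.41 kb inside a boundary, also within 20 kb of Ptpn9. The acetyltransferase gene Kat2b held 2 peaks, at 3.71 and 20.4 kb from its end, and the ligase gene Smurf1 held 1.

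Of 9 regulators and partners of EGR proteins, 1 was near a peak, Elk4, at 3.29 kb inside, where lengths gave 1.61. That peak also lay within 20 kb of Mfsd4a. Neither Nab1 nor Nab2, the EGR corepressors, nor Srf was near one. Of 10 red cell targets of KLF1, 0 were near a peak, where lengths gave 1.29, and their median distance was 406 kb. The GLI, GLIS and ZIC genes, C2H2 zinc finger factors outside the family, gave 0 of 11, where lengths gave 2.08. Their median distance was 480 kb, against 120 kb for the 30 members and 179 kb for the protein-coding genes outside the 30. These medians were not matched for length. None of these differences between lists was tested.

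**Figure D5:**
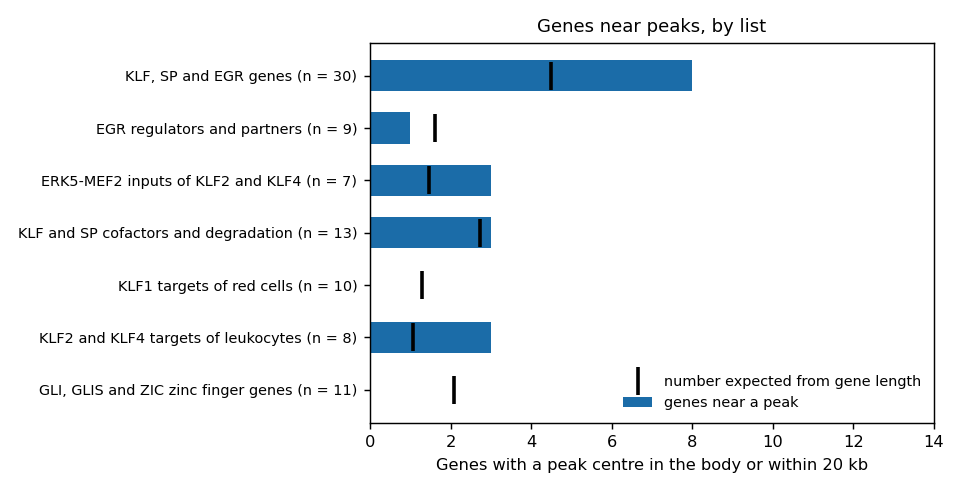
Number of genes with a FLAG-HLF peak centre in the body or within 20 kb (bars) in the 30 KLF, SP and EGR genes, 5 lists of genes linked to them and the GLI, GLIS and ZIC genes, with black ticks for the number given by other protein-coding genes of like length. The bars reach 8 for the members and 3 for KLF2 and KLF4 targets, with 0 for KLF1 targets and for the GLI, GLIS and ZIC genes.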

How the data were processed

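Per the submitters' processing notes, the tools were MACS2 2.0.10 and Bowtie2 2.0.6 and the build was mm10, with no roles stated. The deposited file gives the chromosome, start and end of 3153 peaks, all 400 bp wide. Whether the control library entered peak calling, and at which threshold, is not stated there. A peak's position was its start plus 200 bp. Gene positions came from RefSeq GRCm38.p6, which shares chromosome coordinates with mm10: 49214 of 49997 rows were used, leaving out Y, mitochondrial, unplaced and scaffold rows. The number expected from length is the sum, over members, of the share near a peak among non-members in the same length bin (20 bins on autosomes, 5 on X). No test was run, since there is 1 library. All members near a peak were named, as were those with a peak within 50 kb. Of 59 listed partner, target and comparison symbols, 58 matched and Ahsp did not. A further listed gene is not reported here. Members and lists were chosen with earlier results of these data known. Counting was tested on simulated peaks. Python 3.11.15, numpy 2.4.6, pandas 2.3.3 and scipy 1.17.1 were used.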

Additional observations from a re-analysis of the deposited data

How the results depend on the processing

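The 8 members near a peak were found again when any base of the peak could count and with peaks under 1 kb apart merged. The count was 7 within 10 kb, 10 within 50 kb, 6 by the nearest boundary, and 6 with peaks nearer to another gene left out. Leaving out peaks counted for over 5 other genes kept 8. It was 5 within 5 kb, 5 in the gene body, 13 within 100 kb and 0 within 1 kb of a boundary. The peaks counted, 9 at 20 kb, were 17 at 100 kb and 5 in the body. EGR genes went from 1 to 0 at 5 kb, 0 in the body and 2 at 50 kb, and the linked lists from 10 genes to 7, 6 and 16 under the same settings. Wider and narrower ranges are the cause by construction. The expected number was 4.48 with 10 length bins and 4.59 with none. For autosomal genes only it was 4.44, over 29 members of which 8 lay near a peak. The last 2 settings for single members (nearer genes, crowded peaks) were chosen after seeing the data. No paired analysis was possible because a single library gave the peaks. Depth is unknown, so a gene without a peak is not shown to be unbound.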
